A study of Homo sapiens with 8 samples.

Results

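The S100 proteins are small calcium-binding proteins, and 10 of their genes were followed here in pancreatic cancer cells that received a small interfering RNA (siRNA) against PDX1. The members were S100A2, S100A4, S100A6, S100A8, S100A9, S100A10, S100A11, S100A14, S100A16 and S100P, chosen by name, and each matched 1 of the 28520 rows of the expression tables. The values came from 8 RNA-seq libraries of 4 established human pancreatic ductal adenocarcinoma lines, Panc.8, HPAF-II, Panc.05.04 and Panc.10.05. In each line, 1 library was made from cells given a control siRNA and 1 from cells given the PDX1 siRNA, both collected on day 3. The comparison is therefore replicated over the 4 lines, and a single line has no replicate. PDX1 is a homeobox transcription factor of pancreas development. The siRNA sequences, the number of siRNAs and the genotypes of the lines are not stated in the labels. Levels are FPKM, fragments counted per kilobase of transcript and scaled to library size, so they can be set beside each other between genes.

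An S100 protein carries a pair of calcium-binding EF-hand motifs and usually works as a dimer. Calcium opens a surface on it that grips a target protein, and S100A10 is the known exception that binds its partner without calcium. Inside cells the targets include annexins, myosin and cytoskeletal scaffolds. Several members are also released and act on receptors such as RAGE (encoded by AGER) and TLR4. In pancreatic ductal adenocarcinoma S100P is a well-known tumour marker, absent from most normal ducts.

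Of the 10 rows, 9 lay together on chromosome 1 of hg38, between bases 151982910 and 153616332, a stretch of 1633423 bases. S100P stood alone on chromosome 4, between 6693839 and 6697170. The rows of S100A16 and S100A14 were 1217 bases apart, and those of S100A9 and S100A8 29004 bases apart. Promoters are shown for the pair S100A8 and S100A9, which had the widest spread of differences between lines, and for S100A14 and S100P, which were high in some lines and close to 0 in others. They are RefSeq sequences of GRCh38.p14, from 250 bases before to 50 after the start of the transcript, printed in the direction of the gene. Capitals mark matches, on either strand, to TAAT (the core bound by homeodomains such as that of PDX1), TGANTCA (AP-1), TTNNGNAA (C/EBP factors), TATAAA (the TATA box) or the NF-kB consensus. S100A9 is at chr1:153357604-153357903 on the plus strand. S100A8 is at chr1:153391024-153391323 on the minus strand and is 1 of 3 annotated starts, chosen for its TATA box after the matches were seen. S100A14 is at chr1:153616276-153616575 on the minus strand and S100P at chr4:6693628-6693927 on the plus strand.
S100A9: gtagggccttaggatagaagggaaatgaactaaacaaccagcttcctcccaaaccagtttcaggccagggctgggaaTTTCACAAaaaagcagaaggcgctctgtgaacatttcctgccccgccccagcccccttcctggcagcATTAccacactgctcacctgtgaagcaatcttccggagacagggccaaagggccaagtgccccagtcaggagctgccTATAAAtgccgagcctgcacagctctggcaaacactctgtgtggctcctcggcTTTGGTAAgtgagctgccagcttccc
S100A8: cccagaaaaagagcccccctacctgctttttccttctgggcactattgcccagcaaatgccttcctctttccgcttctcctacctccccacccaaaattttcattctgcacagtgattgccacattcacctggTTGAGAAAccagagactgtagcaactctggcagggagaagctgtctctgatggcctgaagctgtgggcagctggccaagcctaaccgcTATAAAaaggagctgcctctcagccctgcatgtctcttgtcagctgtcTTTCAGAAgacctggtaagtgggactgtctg
S100A14: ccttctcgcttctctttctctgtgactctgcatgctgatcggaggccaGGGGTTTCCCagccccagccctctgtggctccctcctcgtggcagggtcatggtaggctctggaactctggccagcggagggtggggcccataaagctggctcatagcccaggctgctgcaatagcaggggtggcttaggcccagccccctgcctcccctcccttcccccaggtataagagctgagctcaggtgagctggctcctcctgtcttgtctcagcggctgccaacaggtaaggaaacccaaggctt
S100P: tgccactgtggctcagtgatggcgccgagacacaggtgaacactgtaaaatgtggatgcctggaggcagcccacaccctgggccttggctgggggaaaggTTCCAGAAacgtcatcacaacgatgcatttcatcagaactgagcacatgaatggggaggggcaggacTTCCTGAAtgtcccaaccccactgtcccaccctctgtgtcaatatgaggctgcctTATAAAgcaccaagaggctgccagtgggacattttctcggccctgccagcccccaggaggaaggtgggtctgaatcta
The S100A9, S100A8 and S100P windows each held TATAAA within 29 bases of the start and 2 matches to TTNNGNAA. The S100A14 window held none of these and 1 match to the NF-kB consensus. Of the 14 promoters of the 10 members, 8 held TTNNGNAA, 5 held TATAAA, 2 held TAAT, 1 held TGANTCA and 1 held the NF-kB consensus. Among 35116 RefSeq promoters of that length the shares were 36.8%, 11.5%, 50.2%, 7.71% and 11.3%. The 3 S100A8 promoters overlap, so the same site can be counted more than once. Counted by gene in the same order, 6, 4, 2, 1 and 1 of the 10 members held a match in any promoter. TAAT was in the S100A9 window and in another S100A8 start. A match is a description of the letters and not a binding site.

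PDX1 was lower with PDX1 siRNA in each line, at 40.7% of control in Panc.8, 55.9% in HPAF-II, 29.5% in Panc.05.04 and 53.1% in Panc.10.05. The mean difference was -0.52 ± 0.30 on log2(FPKM + 1) (SD, n = 4 lines), and with 4 pairs the exact permutation test (two-sided, flipping signs) cannot give less than the p = 0.125 found. PDX1 was 9.61 and 5.37 FPKM in HPAF-II and at most 1.41 FPKM in the other controls. It was 0.914 and 0.372 FPKM in Panc.8, 1.41 and 0.416 FPKM in Panc.05.04, and 0.188 and 0.0998 FPKM in Panc.10.05. Outside HPAF-II the comparison is therefore between values close to 0. Library sums of FPKM ran from 371329 to 428778, and 11186 to 11477 rows reached 1 FPKM. The ductal markers fit 3 lines, but Panc.05.04 was nearly without KRT19 (1.55 and 0.921 FPKM), KRT7 (0.868 and 0.709 FPKM), CDH1 (1.40 and 2.12 FPKM) and CLDN4 (1.49 and 1.19 FPKM), while KRT8, KRT18, EPCAM and MUC1 were at 32.0 FPKM or more. Some values are therefore also given without Panc.05.04. All 4 tables may have been scaled separately, so levels between lines are described and not tested.

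S100A6, S100A11, S100A10, S100A16 and S100A4 were expressed in all 8 libraries. S100A6, or calcyclin, binds CACYBP and annexin A11, and it was among the most abundant transcripts of every library. With control and PDX1 siRNA it was 1001 and 967.7 FPKM in Panc.8, 1703 and 1490.1 FPKM in HPAF-II, 1534 and 1143 FPKM in Panc.05.04, and 2652 and 1781 FPKM in Panc.10.05. Panc.10.05 was highest and Panc.8 lowest, the libraries of HPAF-II and Panc.05.04 overlapped, and the PDX1 siRNA library was the lower of the pair in every line. S100A11, a partner of annexin A1, was 2906 and 2702 FPKM in Panc.8, where it ranked 2nd and 4th of all rows. It was 1507 and 1478 FPKM in HPAF-II, 1097 and 744 FPKM in Panc.05.04, and 1013 and 801 FPKM in Panc.10.05. The order was Panc.8, then HPAF-II, then the other lines, whose libraries overlapped. RefSeq lists 10 pseudogenes of S100A11, and how reads shared with them were counted is not stated in the labels.

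S100A10, which holds annexin A2 at the plasma membrane, was close to its control in 3 lines and much lower in Panc.10.05. It was 850 and 729 FPKM in Panc.8, 655 and 589 FPKM in HPAF-II, 309 and 296 FPKM in Panc.05.04, and 571 and 210 FPKM in Panc.10.05. The PDX1 siRNA library of Panc.10.05 held 36.7% of its control level, and in the other lines the share was 85.8%, 89.9% and 95.5%. In Panc.10.05 the log2 ratio of -1.44 was among the lowest of all tested rows, 0.363% of which were lower. The authors' deposited table gave S100A10 in Panc.10.05 an unadjusted p-value of 0.0037 and a q-value of 0.446.

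S100A16, a widely expressed member, was 404 and 347 FPKM in Panc.8, 103 and 107 FPKM in HPAF-II, 107 and 76.9 FPKM in Panc.05.04, and 302 and 177 FPKM in Panc.10.05. The Panc.8 libraries were the highest, those of Panc.10.05 came next, and those of HPAF-II and Panc.05.04 overlapped. In Panc.10.05 the PDX1 siRNA library held 58.7% of control. S100A4, a myosin-binding member known from metastasis and mesenchymal cells, was 46.1 and 56.0 FPKM in Panc.8, 26.3 and 27.2 FPKM in HPAF-II, 24.5 and 22.3 FPKM in Panc.05.04, and 38.4 and 39.7 FPKM in Panc.10.05. It varied least of the 10 members, by 2.51-fold from the lowest to the highest library. Of 7 fibroblast markers, 1 reached 1 FPKM in any library, COL1A1 at up to 5.39 FPKM. The summed level of that list was 0.925 to 5.49 FPKM in the control libraries and 0.631 to 5.14 FPKM with PDX1 siRNA.

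**Figure D1:**
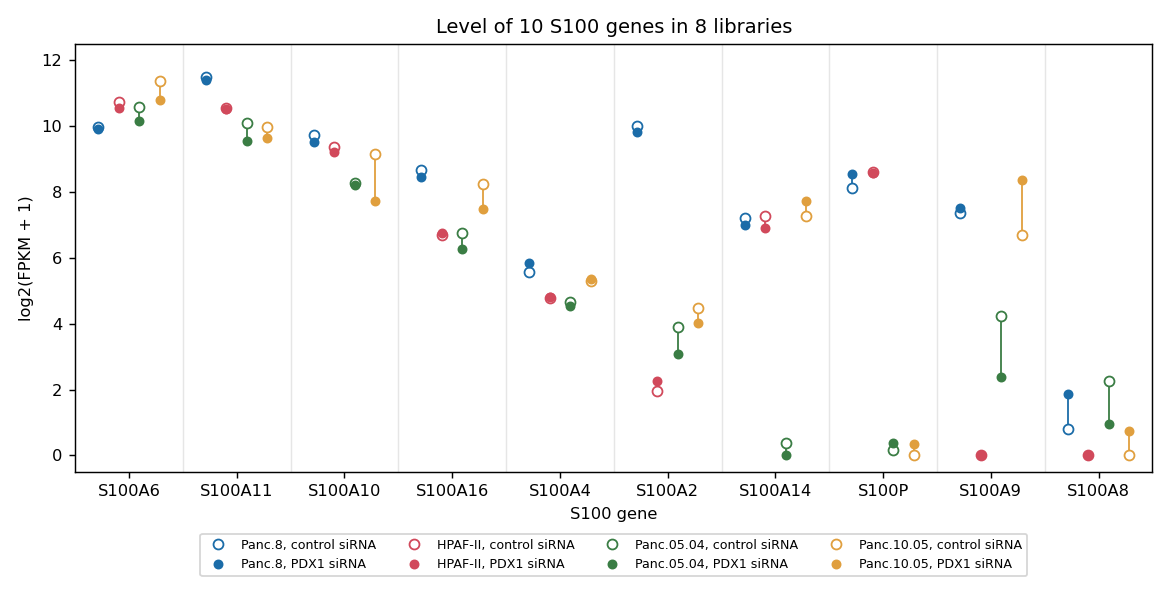
Level of each S100 gene as log2(FPKM + 1) in the control siRNA library (open circle) and the PDX1 siRNA library (filled circle) of each line, joined by a line, with 1 library per point. S100A6, S100A11, S100A10, S100A16 and S100A4 are present in every library, while S100A2, S100A14, S100P and S100A9 differ by several log2 units between lines.

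S100A2, S100A14 and S100P separated the lines. S100A2, a mostly nuclear member of basal and squamous epithelia, was 1029 and 903 FPKM in Panc.8. It was 21.3 and 15.3 FPKM in Panc.10.05, 14.015 and 7.45 FPKM in Panc.05.04, and 2.87 and 3.83 FPKM in HPAF-II. No neighbours in that order overlapped, and Panc.8 stood 52.9-fold above the next line on the mean of its 2 libraries. A list of 8 squamous and keratinocyte markers summed to 2093 and 1711 FPKM in Panc.8, 98.5 and 86.7 FPKM in HPAF-II, 1.25 and 0.831 FPKM in Panc.10.05, and 0.250 and 0.0750 FPKM in Panc.05.04. Its members were uneven. KRT5 at 1368 and 928 FPKM, KRT6A at 326 and 357 FPKM, SPRR1B at 284 and 323 FPKM and TP63 at 69.3 and 62.8 FPKM were high in Panc.8 and at 1.65 FPKM or less elsewhere. DSG3 was higher in HPAF-II, at 96.2 and 84.8 FPKM, than in Panc.8, at 42.7 and 36.6 FPKM. KRT14 and IVL were at 1.82 FPKM or less in Panc.8, and KRT1 was listed at 0 in each library. The part of these differences in the S100A2 level was not tested.

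S100A14, an epithelial member that can act outside the cell, was 148 and 128 FPKM in Panc.8, 154 and 120 FPKM in HPAF-II, and 152 and 212 FPKM in Panc.10.05. In Panc.05.04 it was 0.309 FPKM with control siRNA and listed at 0 with PDX1 siRNA. The 2 Panc.05.04 libraries are those that nearly lacked KRT19 and CDH1, and the part of that difference in the S100A14 level was not tested. S100P, which binds ezrin, IQGAP1 and RAGE, followed another division. It was 392 and 385 FPKM in HPAF-II and 276 and 372 FPKM in Panc.8, against 0.131 and 0.301 FPKM in Panc.05.04 and 0 and 0.273 FPKM in Panc.10.05. Panc.10.05 thus had S100A14 without S100P, Panc.8 and HPAF-II had both, and Panc.05.04 had neither above 0.31 FPKM.

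S100A8 and S100A9 form calprotectin, the metal-binding alarmin of neutrophils and monocytes, which epithelia also make under inflammatory stimulation. S100A9 was 165 and 184 FPKM in Panc.8, 17.9 and 4.21 FPKM in Panc.05.04, and 102 and 327 FPKM in Panc.10.05, and it was listed at 0 in both HPAF-II libraries. With PDX1 siRNA it was therefore 3.21-fold higher than control in Panc.10.05, 4.24-fold lower in Panc.05.04 and 1.11-fold higher in Panc.8. Of all tested rows, 0.537% had a higher log2 ratio than S100A9 in Panc.10.05 and 0.149% a lower one in Panc.05.04. S100A8 was 0.737 and 2.62 FPKM in Panc.8, 3.83 and 0.923 FPKM in Panc.05.04, 0 and 0.686 FPKM in Panc.10.05, and listed at 0 in both HPAF-II libraries. It reached 1 FPKM in 2 of 8 libraries, so its ratios rest on values close to 0. The authors' deposited tables gave S100A9 unadjusted p-values of 0.00055 in Panc.05.04 and 0.00075 in Panc.10.05, with q-values of 0.151 and 0.232. At a q-value of 0.05 or less, the authors' deposited tables held 0 members in any line.

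The partners were far from equal in level. In FPKM, S100A9 exceeded S100A8 by 224-fold in the Panc.8 control, 70.2-fold in its PDX1 siRNA library and 478-fold in the PDX1 siRNA library of Panc.10.05, but by only 4.66-fold and 4.56-fold in Panc.05.04. In Panc.05.04 both genes were lower by nearly the same factor, 4.15-fold for S100A8 and 4.24-fold for S100A9. In Panc.10.05 S100A8 was listed at 0 in the control library.

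Myeloid cells also make S100A8 and S100A9. Of the 8 myeloid markers, 7 had a row of their own and 3 reached 1 FPKM in any library, CD14, CD68 and LYZ. CSF3R, FCGR3B and MPO were at 0.0995 FPKM or less throughout, and ITGAM at 0.380 FPKM or less. The list summed to between 11.1 and 1669 FPKM in the control libraries and between 8.999 and 1402 FPKM with PDX1 siRNA, and LYZ in HPAF-II, where S100A9 was listed at 0, made up most of the highest sums. CD68 moved with S100A9 in Panc.05.04, from 20.7 to 8.35 FPKM, and CD14 in Panc.10.05, from 3.56 to 17.3 FPKM. In the same direction, CD68 was 50.1 and 75.7 FPKM in Panc.10.05, and CD14 1.42 and 0.599 FPKM in Panc.05.04. In Panc.8 CD68 was 8.16 and 18.4 FPKM and CD14 2.28 and 2.57 FPKM, while S100A9 was 165 and 184 FPKM. HPAF-II, with S100A9 listed at 0, had CD68 at 68.7 and 67.0 FPKM and CD14 at 8.86 and 7.53 FPKM. The part of CD68 and CD14 in the S100A9 differences was not tested. In bulk RNA, fewer cells with a transcript and less of it per cell cannot be told apart.

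Genes of neutrophil attraction and the acute phase, a list of 10, had a median log2 ratio of 1.37 in Panc.8, 0.37 in HPAF-II, -1.28 in Panc.05.04 and 0.76 in Panc.10.05. At 1.5-fold, 9, 2, 1 and 5 of them were higher and 0, 0, 7 and 0 lower in the same order of lines. Of all rows with 1 FPKM or more in either library, 3.59%, 0.743%, 1.61% and 10.2% were higher and 1.27%, 0.585%, 2.35% and 8.28% lower. The list was counted without that filter, and 10, 8, 9 and 8 of its 10 genes reached 1 FPKM in either library. LCN2, an iron-withholding protein, and SLPI, a protease inhibitor, are taken from the list as examples after their values were seen. LCN2 was 1074 and 2975 FPKM in Panc.10.05 and 81.9 and 33.4 FPKM in Panc.05.04, and SLPI was 37.7 and 122 FPKM and 83.1 and 20.1 FPKM in the same lines. Both were higher in Panc.10.05 and lower in Panc.05.04, as S100A9 was. In Panc.8 LCN2 was 154 and 412 FPKM and SLPI 274 and 407 FPKM, while S100A9 was 165 and 184 FPKM. In HPAF-II LCN2 was 209 and 303 FPKM and SLPI 8.96 and 12.9 FPKM, with S100A9 listed at 0. Not every gene of the list was higher in Panc.10.05 and lower in Panc.05.04. SAA1, an acute-phase protein, was higher in all 4 lines, at 136 and 390.1 FPKM in Panc.05.04, and the chemokines CCL20 and CXCL2 and the cytokine IL6 were lower in both Panc.05.04 and Panc.10.05. A list of 10 interferon-stimulated genes had median log2 ratios of 3.05 in Panc.8, 0.44 in HPAF-II, -0.48 in Panc.05.04 and 0.73 in Panc.10.05. The part of either list in the S100A8 and S100A9 differences was not tested.

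**Figure D2:**
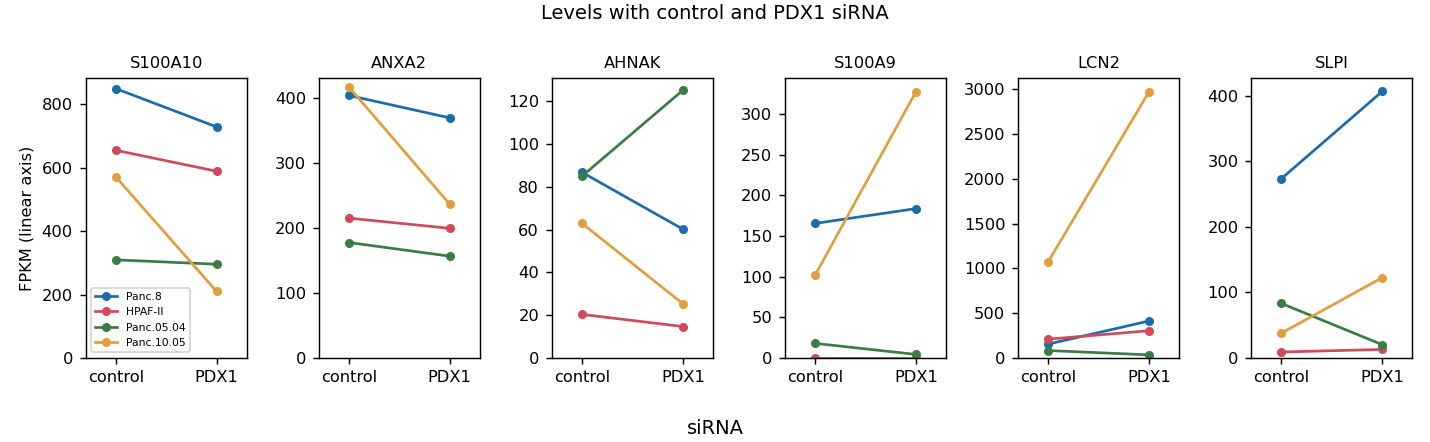
FPKM on a linear axis with control and PDX1 siRNA in the 4 lines, 1 library per point, for S100A10 and its partners ANXA2 and AHNAK and for S100A9 beside LCN2 and SLPI. In Panc.10.05 S100A10 goes from 571 to 210 FPKM and S100A9 from 102 to 327 FPKM, and S100A9, LCN2 and SLPI are all lower with PDX1 siRNA in Panc.05.04.

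To ask which members differed in the same direction across lines, all 12110 rows with a mean of at least 1 FPKM were tested on log2(FPKM + 1) with limma and the line as a block. Of the 10 members, 0 passed an adjusted p of 0.05, as did 0% of all tested rows, and the smallest adjusted p of any row was 0.898. Without adjustment, 0 members and 440 rows (3.63%) had a limma p below 0.05. S100A16 had a mean log2 ratio of -0.35 ± 0.35 (SD, n = 4 lines; SE 0.14), S100P 0.24 ± 0.20 (SE 0.10) and S100A6 -0.31 ± 0.23 (SE 0.14). Their unadjusted p-values from limma were 0.0516, 0.0521 and 0.0657, each with an adjusted p of 0.898. The S100P ratios of 0.20 in Panc.05.04 and 0.35 in Panc.10.05 rest on values under 1 FPKM in both libraries. In the lines that expressed it, S100P had a log2 ratio of 0.43 in Panc.8 and -0.02 in HPAF-II. For S100A10 the mean was -0.47 ± 0.65, for S100A2 -0.29 ± 0.48 and for S100A11 -0.26 ± 0.24, with adjusted p-values of 0.898. S100A14 at -0.12 ± 0.40, S100A4 at 0.06 ± 0.16, S100A8 at 0.12 ± 1.06 and S100A9 at -0.01 ± 1.45 had adjusted p-values of 0.920 to 0.999. Without Panc.05.04 the mean was -0.11 for S100A2, -0.030 for S100A14 and 0.61 for S100A9. The control and PDX1 siRNA libraries overlapped in level for each of the 10 members.

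In direction, 7 of 10 members were lower on average with PDX1 siRNA, against 47.3% of all tested rows, and the members' median of -0.19 compares with 0.01 for all rows. Without Panc.05.04 the count was 6 of 10, close to the 50.5% of all rows, and the members' median was -0.07. The count was 9 without Panc.8, 7 without HPAF-II and 8 without Panc.10.05, against 45.8%, 48.9% and 44.7% of the rows. S100A6, S100A10 and S100A11, the 3 members with the highest mean FPKM over the 8 libraries, were lower in all 4 lines, as were 5.8% of the tested rows. No member (0 of 10) was higher in all 4 lines, as were 7.45% of the tested rows. For S100A10 the mean log2 ratio was -0.15 without Panc.10.05. Taken over a library, the members' share of all FPKM was lower with PDX1 siRNA in each line, at 1.64% and 1.49% in Panc.8, 1.14% and 1.06% in HPAF-II, 0.821% and 0.618% in Panc.05.04, and 1.24% and 0.926% in Panc.10.05. S100A6, S100A11 and S100A10 weigh most in it, at mean levels of 1534, 1531 and 526 FPKM, against 250 FPKM or less for the others. The share is therefore not a separate result on the 10 members.

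**Figure D3:**
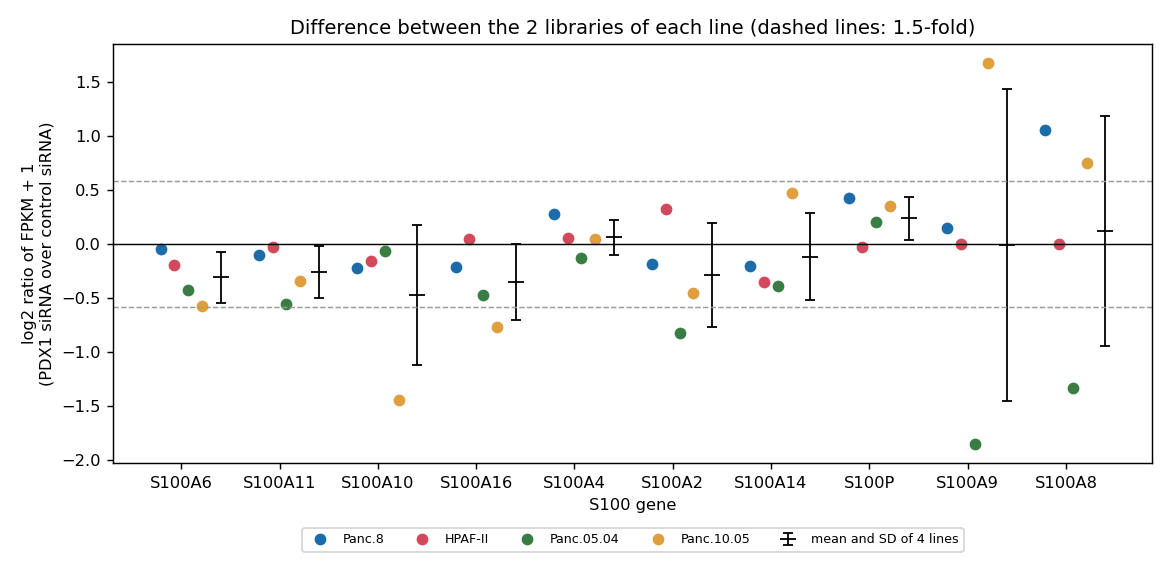
Log2 ratio of FPKM + 1, PDX1 siRNA over control siRNA, for each S100 gene, with 1 point per line and the mean and SD of the 4 lines in black. S100A9 spans -1.85 to 1.68 and S100A8 -1.33 to 1.06, while S100A6, S100A10 and S100A11 lie below 0 in all 4 lines.

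The members differed in how far the lines disagreed. The SD of the 4 log2 ratios was 1.45 for S100A9 and 1.06 for S100A8, and 0.677% and 1.26% of tested rows had a larger one. For S100A10 it was 0.65, exceeded by 4.203% of rows, and for S100A2 0.48, exceeded by 9.28%. The median over all tested rows was 0.213. The spread of S100A9 stayed wide whichever line was left out. Its SD was 1.77 without Panc.8, 0.93 without Panc.05.04 and 1.12 without Panc.10.05, exceeded by 0.438%, 1.73% and 1.19% of rows. Without HPAF-II it was 1.77, exceeded by 0.529%. For S100A8, S100A10 and S100A2 the share of rows with a larger SD rose more when a single line was left out. For S100A8 the SD was 0.54 without Panc.05.04, exceeded by 7.35% of rows, against 1.02% to 1.05% when another line was left out. Without Panc.10.05 that of S100A10 was 0.078, exceeded by 80.1%. For S100A2 it was 0.32 without HPAF-II, exceeded by 30.7%. S100A4, at 0.16, and S100P, at 0.199, lay below the median of all tested rows.

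Within a line there is no test, and a row was counted when it differed by 1.5-fold on log2(FPKM + 1) with at least 1 FPKM in either library. In Panc.8, S100A8 was the 1 member counted as higher, among 3.59% of all rows, and 0 were lower, against 1.27%. HPAF-II had 0 members higher or lower, and 0.743% and 0.585% of its rows. In Panc.05.04, 0 members were higher, against 1.61% of rows, and 3 were lower, S100A2, S100A8 and S100A9, against 2.35%. Panc.10.05 had 1 member higher, S100A9, against 10.2% of rows, and 2 lower, S100A10 and S100A16, against 8.28%. Of the members 10 had 1 FPKM or more in a library of Panc.8, and 8 in each of the other lines. The 3 lower members of Panc.05.04 were thus 3 of 8 that could be counted. S100A8 could be counted only through its higher library, at 3.83 and 0.923 FPKM there and 0.737 and 2.62 FPKM in Panc.8. At 2-fold, 2 members were lower in Panc.05.04, S100A8 and S100A9. The 10 members had a median log2 ratio of -0.45 in Panc.05.04, against 0.03 for all tested rows of that line. Of the members, 9 of 10 were below 0, as were 42.1% of the rows. In Panc.8, HPAF-II and Panc.10.05 the members' medians were -0.08, -0.01 and -0.15. There 6, 5 and 5 members were below 0, against 51.1%, 44.7% and 50.5% of the rows. Members close to 0 enter these counts and medians. S100A8 and S100A9 were listed at 0 in both HPAF-II libraries. S100A8 and S100P in Panc.10.05, and S100A14 and S100P in Panc.05.04, were under 1 FPKM in both libraries.

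**Figure D4:**
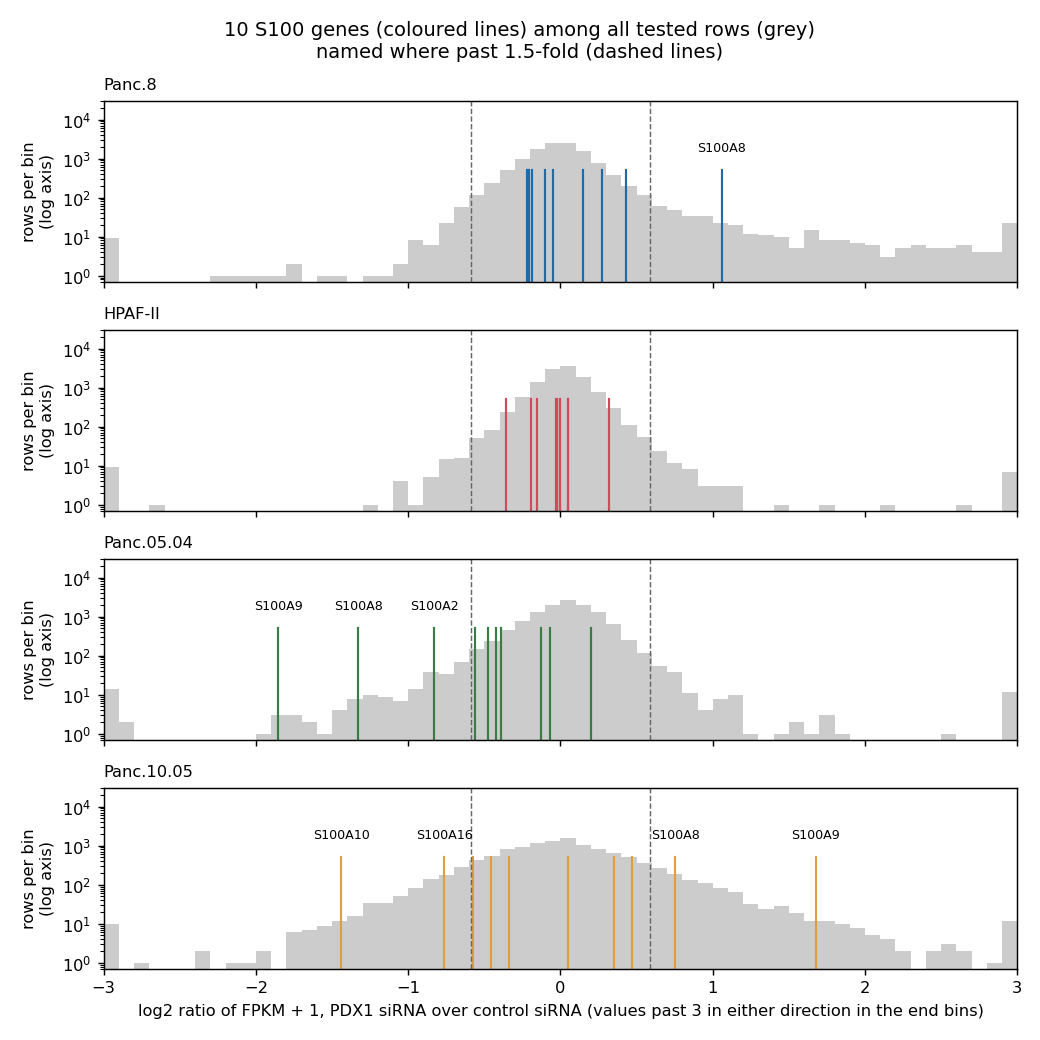
Number of tested rows (grey, log axis, bins of 0.1) at each log2 ratio of PDX1 siRNA over control siRNA, with the 10 S100 genes as coloured lines, named where they pass 1.5-fold (dashed lines). S100A9, S100A8 and S100A2 lie in the lower tail in Panc.05.04, S100A10 and S100A9 lie in opposite tails in Panc.10.05, and S100A8 is named there although it was under 1 FPKM in both libraries.

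The partners and receptors of the S100 proteins were followed in a list of 15 genes, 14 of them with a row of their own and all 14 tested, while AGER had several rows and was not used. By limma 0 of 14 passed an adjusted p of 0.05. On average 5 were higher and 9 lower, with a median of -0.14, and 1 was higher and 4 lower in all 4 lines, against 7.45% and 5.8% of all rows. In Panc.10.05, 7 of them were lower by 1.5-fold and 1 higher, against 8.28% and 10.2% of rows, and the other lines had 0 in either direction. The shares are of rows with 1 FPKM or more in either library, which 13 of the 14 reached in Panc.10.05. ANXA2, the partner of S100A10, was 404 and 370 FPKM in Panc.8, 215 and 200 FPKM in HPAF-II, 178 and 157 FPKM in Panc.05.04, and 418 and 237 FPKM in Panc.10.05. The PDX1 siRNA library was lower in each line, and in Panc.10.05 the ratio of S100A10 to ANXA2 FPKM went from 1.37 to 0.886. AHNAK, a giant scaffold bound by that complex, was 62.9 and 25.3 FPKM in Panc.10.05, with 86.8 and 60.2 FPKM in Panc.8, 20.3 and 14.6 FPKM in HPAF-II, and 84.9 and 125 FPKM in Panc.05.04. It was thus lower in 3 lines and higher in Panc.05.04.

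The other partners lower by 1.5-fold in Panc.10.05 were ANXA5, another annexin (86.2 and 41.1 FPKM), CACYBP, the S100A6-binding ubiquitin ligase adaptor (36.9 and 19.8 FPKM), MYH9, the myosin bound by S100A4 (188 and 116 FPKM), and the S100P partners EZR (234 and 146 FPKM) and IQGAP1 (116 and 72.1 FPKM). ANXA6, a further annexin, was 2.98 and 13.7 FPKM there and was the 1 higher. S100PBP, which binds S100P, was the 1 partner higher in all 4 lines, with a mean log2 ratio of 0.19 ± 0.16 (SD, n = 4). ANXA1, the partner of S100A11, had a mean of 0.13 ± 0.15, ANXA11 -0.04 ± 0.05, SUGT1 0.00 ± 0.19 and BSG, a receptor for S100A9, -0.21 ± 0.20. TLR4, another S100A9 receptor, was 5.15 and 7.19 FPKM in Panc.8, 0.891 and 0.899 FPKM in HPAF-II and listed at 0 in the other lines.

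Of 11 further S100 genes with a row, 2 had a mean of 1 FPKM, and both were lower on average. S100A13, known for the release of FGF1, was 107 and 106 FPKM in Panc.8, 69.5 and 64.6 FPKM in HPAF-II, 57.4 and 38.5 FPKM in Panc.05.04, and 137 and 107 FPKM in Panc.10.05. It was lower in all 4 lines, with a mean log2 ratio of -0.25 ± 0.25 (SD, n = 4). S100A3, a member of hair cuticle, was 7.73 and 8.16 FPKM in Panc.8, 0.972 and 0.191 FPKM in HPAF-II, 22.9 and 20.0 FPKM in Panc.05.04, and 24.7 and 6.69 FPKM in Panc.10.05. Its row and that of S100A4 cover the same interval, but S100A4 was 1.03-fold of control in Panc.10.05 while S100A3 was 0.270-fold. The remaining 9 stayed under 1 FPKM, among them S100A12, a neutrophil member, at 0.120 and 0.764 FPKM in Panc.8 and listed at 0 elsewhere. In the annotation S100A6 shares 23 exonic bases with an antisense gene, and the labels do not state whether counting used the strand.

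For the 4 members with the widest range over lines, the genes with the most similar pattern over the 8 libraries were sought among 11773 rows. The measure was the Pearson correlation of log2(FPKM + 1), which compares the pattern and not the level or the size of the range. The values describe libraries that come in pairs from 4 lines, so a gene that separates the lines in the same way scores high. S100P was closest to PTOV1-AS1 (r = 0.998), ERN2 (r = 0.998) and HPDL (r = 0.998), and 156 rows exceeded 0.95. S100A2 was closest to RNPS1 (r = 0.994), FHOD3 (r = 0.994) and RCBTB2 (r = 0.992), and 215 rows exceeded 0.95. RNPS1 ran only from 40.0 to 77.8 FPKM over the libraries, and S100A2 from 2.87 to 1029 FPKM. S100A9 was closest to LPAR1 (r = 0.990), ORAI3 (r = 0.989) and GJD3 (r = 0.986), with 52 rows over 0.95, the fewest of the 4. S100A14 was closest to KRT19 (r = 0.999), HOOK2 (r = 0.998) and ESRP1 (r = 0.996), with 214 rows over 0.95. Over the 6 libraries without Panc.05.04, KRT19 had r = 0.736 and ESRP1 r = 0.672, so these rest on that line. HOOK2 kept r = 0.949, and the 9 values of the other members stayed between 0.985 and 0.998. Only Panc.05.04 was left out. Whether those 9 values rest on another line, such as Panc.8 for S100A2, was not tested.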

How the data were processed

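RNA-seq of total RNA was used from 8 libraries, 1 per siRNA in each of 4 lines. The build was hg38 and the tools TopHat2 (version 2), Cufflinks and Cuffdiff, per the submitters' processing notes. The annotation, the other versions and the use of strand are not stated there. Per the file headers, the authors deposited for each line an FPKM value per library and Cuffdiff p-values and q-values, which compare 2 libraries and not the conditions. Because FPKM are not counts, a count model was not fitted, and more reads of a few abundant genes lower the FPKM of the others. Rows were joined by identifier. Read depth is unknown. From the spacing of low values, PDX1 siRNA libraries had 0.642, 1.39, 0.835 and 0.959 of the depth of their control in Panc.8, HPAF-II, Panc.05.04 and Panc.10.05, and a less common spacing gives 1.28, 1.49, 1.65 and 1.92, so these are unsure.

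Differences were computed as log2(FPKM + 1), so those of low genes are understated. Rows with a mean FPKM of at least 1 (12110) were fitted with limma 3.58.1 (R 4.3.3), the line as block and eBayes with trend, with Benjamini-Hochberg adjustment over all of them, leaving 3 residual and 2.94 prior degrees of freedom. The labels give the pairing by line, and the deviations of the 2 libraries of a line correlated at 0.844 to 0.963. Equal values were found in no more than 0.0091% of rows above 1 FPKM for any pair of libraries. The p-values measure the spread between 4 lines. PDX1 was tested with an exact sign-flip permutation test. Alternatives were another pseudocount, other filters, no block, median centring, eBayes without trend, a fold of 2 and each line left out. Row starts were counted from 0 and 1 was added, after which 9 of 10 members lay within 10 bases of the RefSeq start. Promoters were matched by symbol for 10 of 10 members.

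The members, the gene lists (8, of S100 relatives, partners, myeloid, fibroblast, squamous and ductal markers, interferon-stimulated and neutrophil-attracting genes) and the tests were chosen with earlier results of these data known. Named genes are PDX1, the members, S100 relatives and partners that reached 1 FPKM, and the 3 genes most like each of the 4 members with the widest range. Others are named as examples chosen after their values were seen. Of the 8 squamous markers 7 reached 1 FPKM in some library, and of the 8 ductal markers all 8 did. Other steps used pandas 2.3.3, numpy 2.4.6 and scipy 1.17.1 under Python 3.11.15, with figures from matplotlib 3.10.9.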

Additional observations from a re-analysis of the deposited data

Results flagged for a closer look

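S100A9 moved in opposite directions in 2 lines, with a log2 ratio of 1.68 in Panc.10.05 and -1.85 in Panc.05.04. S100A8 did so with 1.06 in Panc.8 and -1.33 in Panc.05.04, at FPKM of 3.83 or less. With 1 library per line and treatment neither difference between lines was tested.

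S100A10 had a log2 ratio of -1.44 in Panc.10.05, set apart from the other 3 lines by a gap of 0.887 of the whole range, above Dixon's critical value for 4 samples. S100A14 was set apart in Panc.05.04 in level, with a log2(FPKM + 1) of 0.39 in the control library and 0.00 in the PDX1 siRNA library, by 0.992 and 0.895 of the range. Of 30 sets of 4 values looked at, 3 held such a sample, and chance gives about 1 in 20. The sets come from the same 4 lines, and S100A14 in Panc.05.04 was counted with each siRNA. The sets are therefore not independent, and the count cannot be weighed against that share.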

How the results depend on the processing

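The count of members past an adjusted p of 0.05 was 0 under all 10 alternatives across lines, and the adjusted p of the members ran from 0.775 to 1. Of 99 member values, 95 kept their direction. S100A4 turned to -0.010 without Panc.8, S100A8 to -0.19 without Panc.8 and -0.09 without Panc.10.05, and S100A9 to 0.61 without Panc.05.04 (adjusted p from limma 0.789). The cause was not tested. Leaving out each line in turn gave -0.40 to -0.22 for S100A6, -0.61 to -0.15 for S100A10, -0.33 to -0.16 for S100A11, -0.48 to -0.21 for S100A16 and 0.18 to 0.33 for S100P, -0.49 to -0.11 for S100A2, -0.32 to -0.030 for S100A14, up to 0.12 for S100A4, up to 0.60 for S100A8 and down to -0.57 for S100A9. S100A8 has no value at a mean of at least 5 FPKM, which it does not reach. In the fit with no replicate block, 0 members and 0 rows passed, and the pairing changed no call. PDX1 without the block kept -0.52 (exact permutation p = 0.514), had -1.001 with a pseudocount of 0.1, and ran from -0.66 to -0.44 without a line. That pseudocount also moved members with values close to 0, S100P to 0.78, S100A14 to -0.53, S100A8 to 0.68 and S100A9 to -0.06, and no other member by over 1.5 times. Within Panc.10.05, 1 member (S100A10) was lower at 2-fold in place of 2, and 2 (S100A8 and S100A9) were higher with no filter on low values in place of 1. Counts within the other lines stayed within 1.5 times. The counts and SDs of members without a line and the likeness without Panc.05.04 were added after seeing the data. Depth is unknown, so no counting error can be given for members under 1 FPKM.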

Other observations

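The FPKM of S100A11 relative to that of its partner ANXA1 was lower with PDX1 siRNA in each line, at 8.86 and 8.51 in Panc.8, 2.99 and 2.39 in HPAF-II, 3.53 and 2.30 in Panc.05.04, and 2.19 and 1.48 in Panc.10.05. Within Panc.10.05 the ratio of S100A4 to S100A3 FPKM, genes whose rows share an interval, was 1.55 in the control library and 5.93 with PDX1 siRNA, against 1.07 and 1.12 in Panc.05.04. That ratio was 5.97 and 6.86 in Panc.8. In HPAF-II it was 27.0 and 143, with S100A3 at only 0.972 and 0.191 FPKM. These pairs were chosen after earlier results were known, and the ratios were not tested.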
